A study of Mus musculus with 6 samples.

Results

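The genes Zbtb16, Slamf1, Slamf6, Ly9, Cd244 and Sh2d1a were examined in mouse lymph node T cells labelled Ezh2 deficient, against Ezh2 fl/fl T cells. Members were taken as every probe set whose single platform symbol is one of these 6 names, out of 18193 named genes on the array. Cd244 stands in the platform annotation under its current symbol Cd244a and was matched through the gene table's synonyms. The 6 genes were read by 13 of the 45101 probe sets.

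RNA was measured on 6 single-colour Affymetrix arrays, 3 of Ezh2 deficient lymph node T cells and 3 of Ezh2 fl/fl lymph node T cells. Ezh2 is the Polycomb enzyme that methylates histone H3 at silenced genes, and fl/fl is the usual notation for a pair of alleles carrying loxP sites. The labels do not name the deleting Cre, the strain, the age, or a sort or gate for the T cells. They also do not say whether the arrays came from separate mice, so each p-value reflects only how these arrays varied, part of which may be technical.

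Zbtb16 encodes PLZF, a zinc finger transcription factor that directs the innate-like program of natural killer T (NKT) cells and is low or absent in most conventional T cells. The receptors encoded by Slamf1, Slamf6, Ly9 and Cd244 belong to the SLAM family. Most SLAM receptors bind their own kind on a neighbouring cell, while Cd244 binds Cd48. Sh2d1a encodes SAP, the small adaptor that binds the phosphorylated tails of these receptors and recruits the kinase Fyn. In the mouse thymus, contacts through Slamf1 and Slamf6 that signal by SAP are needed for NKT cells to develop and express PLZF. The transcription factor Myb is needed in mouse thymocytes for normal expression of Slamf1, Slamf6 and Sh2d1a.

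The SLAM receptor genes lie side by side on chromosome 1, where the RefSeq gene table of assembly GRCm38.p6 gives the order Cd244a, Ly9, Slamf7, Cd48, Slamf1, Cd84 and Slamf6, with Tma7-ps between Cd48 and Slamf1. Zbtb16 is on chromosome 9 and Sh2d1a on chromosome X. Promoter windows of 300 bases were taken from RefSeq for the receptors Slamf6 and Slamf1. They are shown because both are NKT selection receptors of the same locus, and Slamf6 had a probe set on which the groups did not overlap while Slamf1 had none. A window of this kind was matched for 3 of the 6 members, and not for Sh2d1a, Zbtb16 or Ly9. Because this pair was chosen with its values known, a difference in motif counts between its windows is a description only. Capitals mark the Myb core, searched as AACTG and AACGG on both strands, and positions are counted from the annotated start of the gene. The Slamf6 window is chr1:171917212-171917511 and the Slamf1 window chr1:171766882-171767181, both GRCm38.p6 and on the plus strand.
Slamf6: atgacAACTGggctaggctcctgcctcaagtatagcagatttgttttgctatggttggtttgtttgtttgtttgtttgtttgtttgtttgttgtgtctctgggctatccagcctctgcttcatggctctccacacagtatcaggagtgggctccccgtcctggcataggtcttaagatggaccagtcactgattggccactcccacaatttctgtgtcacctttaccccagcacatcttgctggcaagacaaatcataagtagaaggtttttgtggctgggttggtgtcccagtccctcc
Slamf1: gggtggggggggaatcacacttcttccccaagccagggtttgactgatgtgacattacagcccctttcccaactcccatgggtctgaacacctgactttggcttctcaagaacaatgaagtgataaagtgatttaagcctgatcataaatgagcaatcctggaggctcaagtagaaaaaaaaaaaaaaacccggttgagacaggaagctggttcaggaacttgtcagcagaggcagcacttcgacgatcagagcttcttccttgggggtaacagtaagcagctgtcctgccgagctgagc
The Slamf6 window held 1 such core, an AACTG beginning at position -245, and the Slamf1 window held 0. The window of Cd244, which is not shown because its probe sets were too dim to test, held 2. Of 27025 promoter windows of the same length, 55.2% held at least 1, so a match is common. The E-box CANNTG, the motif of E proteins such as Tcf12, was found at 1 place in the Slamf6 window, 2 in the Slamf1 window and 3 in the Cd244 window, and 72.1% of all windows held it. The only E-box of the Slamf6 window, CAACTG, contains its Myb core. Both Myb cores of the Cd244 window likewise lie inside an E-box, so the 2 counts are partly of the same bases. Matches of a few letters are a description and do not show that a factor binds.

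Ezh2 mRNA was lower in the deficient cells, on the single probe set that reads it. The Ezh2 probe set read 282, 289 and 276 on the Ezh2 deficient arrays, against 579, 684 and 801 on the Ezh2 fl/fl arrays. This left 41.0% of the Ezh2 fl/fl mean, at a log2 difference of -1.16 (SE 0.13). For this single gene limma gave p = 7.83e-06 unadjusted, and the exact permutation p was 0.10, the smallest that 3 arrays against 3 allow. Adjusted over all probe sets, the limma p was 0.0705 (0.0306 to 0.263 under the alternatives), so Ezh2 was not the 1 probe set that passed the threshold applied to every other gene. Values are quantile normalised intensities throughout, and differences are on the scale log2(intensity + 43.3), as Ezh2 deficient minus Ezh2 fl/fl, which understates the change of dim probe sets. Ezh2 fl/fl replicate 1 stood apart from the other 5 arrays, at -41.5 on the first principal component (30.6% of the variance) where the others ran from 1.48 to 15.1. Differences without it are given for each named gene where leaving it out turned the sign or moved the difference by over 1.5 times.

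The T cell label was checked against marker lists. Of 11 T cell markers, 10 were measured and all 10 were bright enough to test. Their summed intensity was 85321 to 86265 on the Ezh2 deficient arrays and 85676 to 88574 on the Ezh2 fl/fl arrays. Of the 10 differences 3 were positive and 7 negative. Only Cd8b1 did not overlap, lower in the deficient cells at -0.17 (limma adjusted p = 0.581). That is 10% of 10, beside 7.80% of all tested genes on the lower side. Cd8a was at -0.06 with overlap, and from -0.23 to -0.08 on its other probe sets. Of 8 B cell markers, 7 were measured, 4 of them (Cd79a, Blnk, Cr2 and Fcer2a) lay below the intensity filter, and the sums were 1007 to 1058 on Ezh2 deficient arrays and 980 to 1088 on Ezh2 fl/fl arrays. Of the 3 tested B cell markers only Pax5 did not overlap, higher at 0.33. That is 33.3% of 3, beside 6.40% of all tested genes on that side. For natural killer cells 7 of 9 markers were measured, with Ncr1, Klra8 and Tyrobp below the filter, and the sums were 3017 to 3569 on Ezh2 deficient arrays and 2855 to 3137 on Ezh2 fl/fl arrays. Prf1 (mean 1542 in Ezh2 deficient and 1556 in Ezh2 fl/fl cells) and Eomes (1112 and 919) made up most of these sums. The 9 dendritic cell and macrophage markers summed to 1229 to 1380 on Ezh2 deficient arrays and 1414 to 1756 on Ezh2 fl/fl arrays, with Cd209a, Flt3 and Cd14 below the filter. For gamma delta T cells 3 of 5 markers were measured, at 605 to 917 on Ezh2 deficient arrays and 836 to 1437 on Ezh2 fl/fl arrays. The 6 immature thymocyte markers summed to 3968 to 5220 on Ezh2 deficient arrays and 3830 to 6035 on Ezh2 fl/fl arrays, with Rag1 and Rag2 below the filter. Most of that sum was Ccr9 (mean 2676 in Ezh2 deficient and 3066 in Ezh2 fl/fl cells) and Cd1d1 (1622 and 1627), while Ptcra averaged 144 and 140. The 3 plasma cell markers gave 496 to 702 on Ezh2 deficient arrays and 689 to 754 on Ezh2 fl/fl arrays. Each deficient array thus lay below every Ezh2 fl/fl array for the dendritic cell and macrophage sum. Of its 6 tested markers 2 differences were positive and 4 negative. Only 1 of these 6, Csf1r, did not overlap, at -0.42, which is 16.7% of 6 beside 7.80% of all tested genes on the lower side. Csf1r was at 0.12 and 0.29 on its other probe sets, so the separation of this sum leans on 1 probe set. The part of these sums in the results was not tested. In RNA of a mixed population, fewer cells of a type and less RNA per cell cannot be told apart.

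None of the 6 genes passed the test over all probe sets. Of the 13 probe sets, 9 were bright enough to be tested, from 5 of the genes, and 4 lay below the filter at an intensity of about 113. By limma 0 of the 9 were called at an adjusted p under 0.05, and 2 had an unadjusted p under 0.05. Over all 27022 tested probe sets, 0.00370% were called and 7.22% had an unadjusted p under 0.05. The Ezh2 deficient and Ezh2 fl/fl arrays did not overlap on those same 2 probe sets, both higher in the deficient cells, 1 of Sh2d1a and 1 of Slamf6. That is 22.2% of 9, where the share over all tested probe sets was 13.1%, with 6.55% on the higher side. Without Ezh2 fl/fl replicate 1 the count was again 2 of 9, where the share over all tested probe sets was 23.4%, so the members' share was then close to that of all probe sets. With 9 probe sets tested, a share of this size rests on single probe sets. Positive differences numbered 5 and negative 4, and the median of the 9 was 0.01, beside -0.003 over all tested probe sets.

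**Figure D1:**
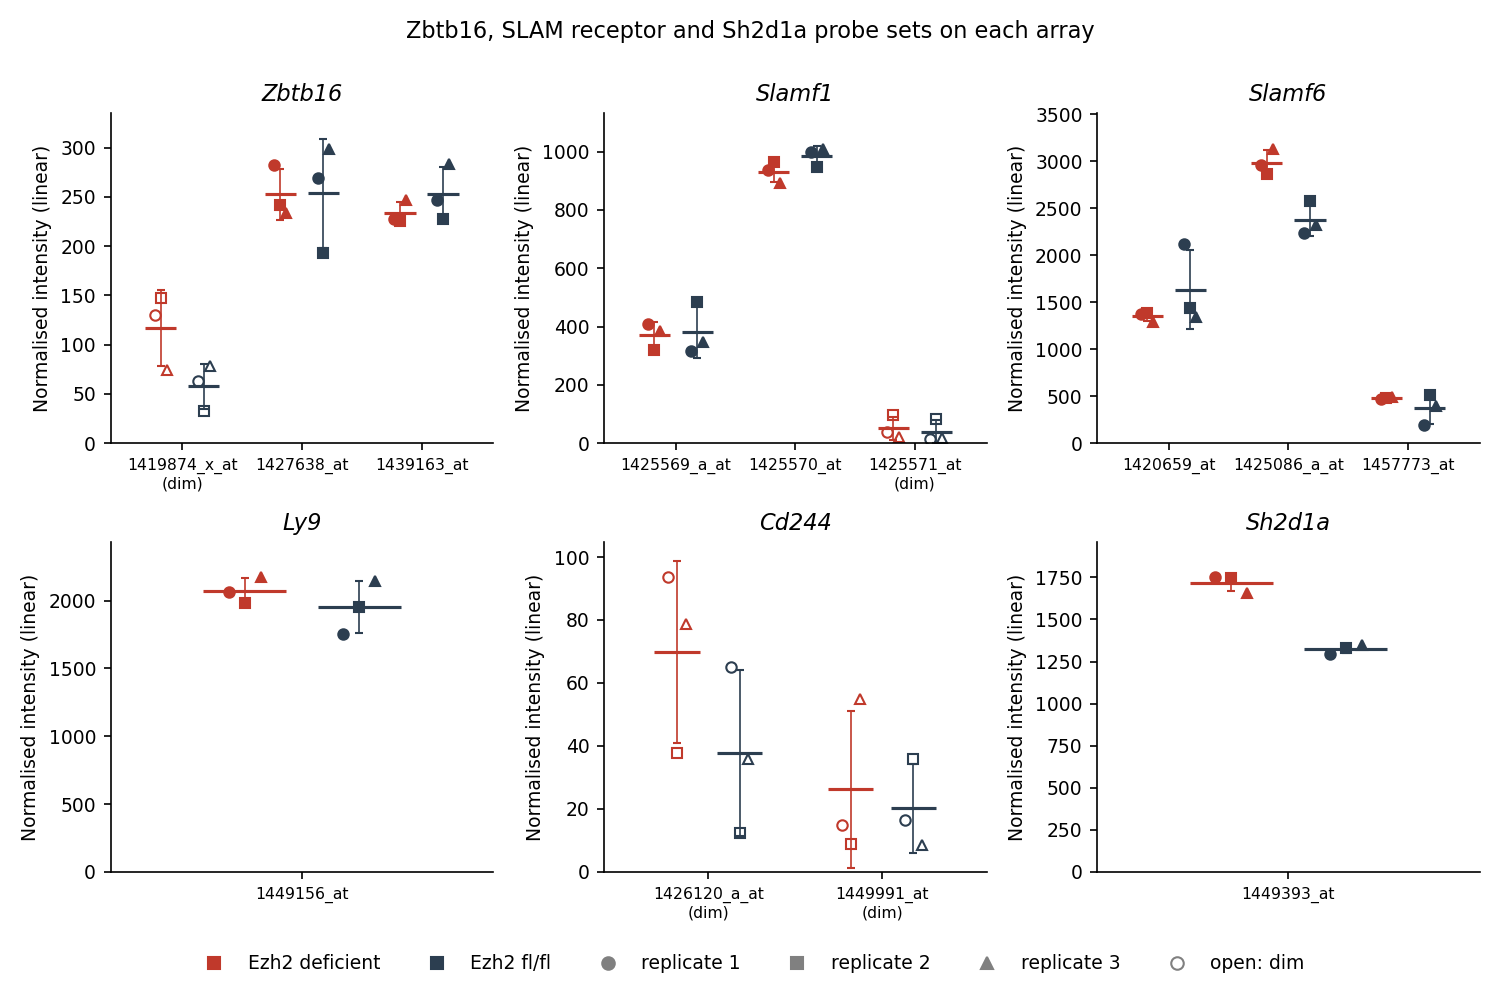
Normalised intensity (linear axis from 0) of the 13 probe sets of the 6 genes on each of the 3 Ezh2 deficient and 3 Ezh2 fl/fl arrays. Points are arrays, bars are means with SD, and open points mark probe sets below the intensity filter. The groups are separate for Slamf6 1425086_a_at and Sh2d1a 1449393_at and overlap at the other 11.

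PLZF mRNA was read by 3 probe sets, and on the brighter ones the groups overlapped. Zbtb16 probe set 1427638_at read 282, 242 and 234 on the Ezh2 deficient arrays, against 269, 192 and 299 on the Ezh2 fl/fl arrays. The Ezh2 fl/fl arrays held both the lowest and the highest value, so the deficient values lay inside their range. Their log2 difference was 0.01, with a 95% interval from -0.37 to 0.38 (limma adjusted p = 0.993), and it was 0.05 without Ezh2 fl/fl replicate 1.
Probe set 1439163_at of Zbtb16 read 227, 226 and 247 on the Ezh2 deficient arrays, against 246, 228 and 283 on the Ezh2 fl/fl arrays. Here deficient replicates 1 and 2 were the lowest, but deficient replicate 3 lay above Ezh2 fl/fl replicates 1 and 2, so the groups overlapped. The log2 difference was -0.09 (interval -0.39 to 0.21, limma adjusted p = 0.902). As folds of intensity + 43.3 these intervals reach from 0.776-fold to 1.31-fold and from 0.762-fold to 1.15-fold. A change of these readings within those bounds could not be told from no change. No detection calls were used, so how much of these readings is PLZF mRNA is not known.

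The dim Zbtb16 probe set read differently. Probe set 1419874_x_at, whose _x_at ending marks probes that can match other transcripts, read 130, 148 and 74.0 on the Ezh2 deficient arrays and 62.9, 32.5 and 77.8 on the Ezh2 fl/fl arrays. Deficient replicates 1 and 2 were above all 3 Ezh2 fl/fl arrays, and deficient replicate 3 was below Ezh2 fl/fl replicate 3. This gave a log2 difference of 0.66 (interval 0.05 to 1.28), with an unadjusted p of 0.0376 by limma without the filter and an exact permutation p of 0.20. It lay below the filter, so no adjusted p is given.

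Slamf6, a SLAM receptor prominent on thymocytes and naive T cells, gave readings that disagreed between its probe sets. On 1425086_a_at, the brightest, the intensity was 2957, 2860 and 3132 on the Ezh2 deficient arrays, against 2232, 2572 and 2321 on the Ezh2 fl/fl arrays. Every deficient array lay above every Ezh2 fl/fl array. The deficient mean was 2983 ± 138 and the Ezh2 fl/fl mean 2375 ± 176 (SD, n = 3 each), a 1.25-fold difference of intensity + 43.3. On the log2 scale this was 0.33 (SE 0.08, interval 0.15 to 0.50), with a limma adjusted p of 0.483. The unadjusted limma p was 0.00206 and the exact permutation p 0.10. In the order of p this Slamf6 probe set ranked 115 of 27022.
Slamf6 probe set 1420659_at read 1372, 1383 and 1292 on the Ezh2 deficient arrays, against 2115, 1438 and 1341 on the Ezh2 fl/fl arrays. Ezh2 fl/fl replicate 1 stood well above the other 5, which lay between 1292 and 1438. The difference on the log2 scale was -0.24 (interval -0.58 to 0.10, limma adjusted p = 0.762), and -0.04 without that array.
The dimmest Slamf6 probe set, 1457773_at, read 470, 480 and 488 on the Ezh2 deficient arrays, against 189, 516 and 399 on the Ezh2 fl/fl arrays. Here Ezh2 fl/fl replicate 1 was the low one, and the deficient arrays sat inside the range of the others. The difference came to 0.44 on the log2 scale (interval -0.17 to 1.05, limma adjusted p = 0.757), and 0.07 without that array. The 1425086_a_at difference was 0.29 without it (limma adjusted p = 0.533), with the groups still apart. An ending of _a_at marks a probe set that can read several transcripts of the same gene, and the sources used here do not give which Slamf6 transcript each one reads.

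Slamf1, the founding member of the family, showed no separation. Its brightest probe set, 1425570_at, read 937, 963 and 894 on the Ezh2 deficient arrays, against 998, 948 and 1010 on the Ezh2 fl/fl arrays. Only deficient replicate 2 reached into the Ezh2 fl/fl range. The log2 difference was -0.08 (interval -0.27 to 0.11, limma adjusted p = 0.867), which is the second narrowest interval among the receptor probe sets after Slamf6 1425086_a_at.
Slamf1 probe set 1425569_a_at read 409, 320 and 383 on the Ezh2 deficient arrays, against 316, 484 and 347 on the Ezh2 fl/fl arrays, with the deficient values inside the other range and a log2 difference of -0.03 (interval -0.40 to 0.34), or -0.14 without Ezh2 fl/fl replicate 1. The third probe set of Slamf1, 1425571_at, was dim in both groups at 36.5, 95.3 and 20.6 on the Ezh2 deficient arrays and 12.8, 83.4 and 18.4 on the Ezh2 fl/fl arrays. Replicate 2 was the bright one of each group there, at a log2 difference of 0.23 (interval -0.65 to 1.11), or 0.01 without Ezh2 fl/fl replicate 1.

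Ly9, a self-binding receptor known in the mouse to restrain the numbers of innate-like T cells, was read by 1 probe set. Ly9 read 2065, 1983 and 2170 on the Ezh2 deficient arrays, against 1757, 1952 and 2143 on the Ezh2 fl/fl arrays. The upper values were alike in both groups and Ezh2 fl/fl replicate 1 was the lowest of all 6. The log2 difference was 0.09 (interval -0.11 to 0.29, limma adjusted p = 0.852), and 0.02 without that array.

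Cd244, an activating or inhibitory receptor of natural killer cells and cytotoxic T cells, stayed near the floor. On 1426120_a_at Cd244 read 93.5, 37.6 and 78.7 on the Ezh2 deficient arrays, against 65.2, 12.4 and 35.9 on the Ezh2 fl/fl arrays. On 1449991_at it read 14.97, 8.75 and 54.9 on the Ezh2 deficient arrays and 16.5, 35.9 and 8.42 on the Ezh2 fl/fl arrays. Both probe sets overlapped between groups and read under the filter intensity on every array, at log2 differences of 0.50 (interval -0.19 to 1.18) and 0.09 (interval -0.52 to 0.70, and 0.06 without Ezh2 fl/fl replicate 1). No change of Cd244 could be measured at this brightness.

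Sh2d1a, the SAP adaptor gene, was the member with the clearest separation. It read 1750, 1748 and 1659 on the Ezh2 deficient arrays, against 1297, 1332 and 1348 on the Ezh2 fl/fl arrays. The lowest deficient array was well above the highest Ezh2 fl/fl array, and the spread within each group was small. The means were 1719 ± 52.0 in the deficient cells and 1326 ± 25.8 in the Ezh2 fl/fl cells (SD, n = 3 each). As a fold of intensity + 43.3 this was 1.29-fold, with a 95% interval from 1.15-fold to 1.44-fold. On the log2 scale this was 0.36 (SE 0.07), with a limma adjusted p of 0.347, so Sh2d1a did not pass the test. Its unadjusted limma p of 0.000710 ranked 55 of 27022, and the exact permutation p was 0.10, the smallest this design allows. With each array left out in turn the difference stayed between 0.35 and 0.39, the tightest range of the 13 probe sets. Without Ezh2 fl/fl replicate 1 it was 0.35 (limma adjusted p = 0.410). Over the same 6 arrays the natural killer marker sums, most of which was Prf1 and Eomes, overlapped between groups. They were 3491, 3569 and 3017 on the deficient arrays, against 2972, 3137 and 2855 on the Ezh2 fl/fl arrays. Among the 4 natural killer markers that were tested, the groups did not overlap for 2, both higher in the deficient cells, Gzma at 0.63 and Klre1 at 0.34. That is 50% of 4, beside 6.40% of all tested genes on that side, so it rests on single genes. Without Ezh2 fl/fl replicate 1 Gzma and Klre1 still did not overlap, where the share of all tested genes was 10.9%. Eomes was at 0.27 and Prf1 at -0.01, with 0.14 and 0.08 when Ezh2 fl/fl replicate 1 was left out. Of the 3 dim ones Tyrobp, at 0.70, was higher without overlap. Ncr1, at -0.21, and Klra8, at -0.07 (0.02 without that array), were lower with overlap. The part of these markers in the Sh2d1a difference was not tested.

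**Figure D2:**
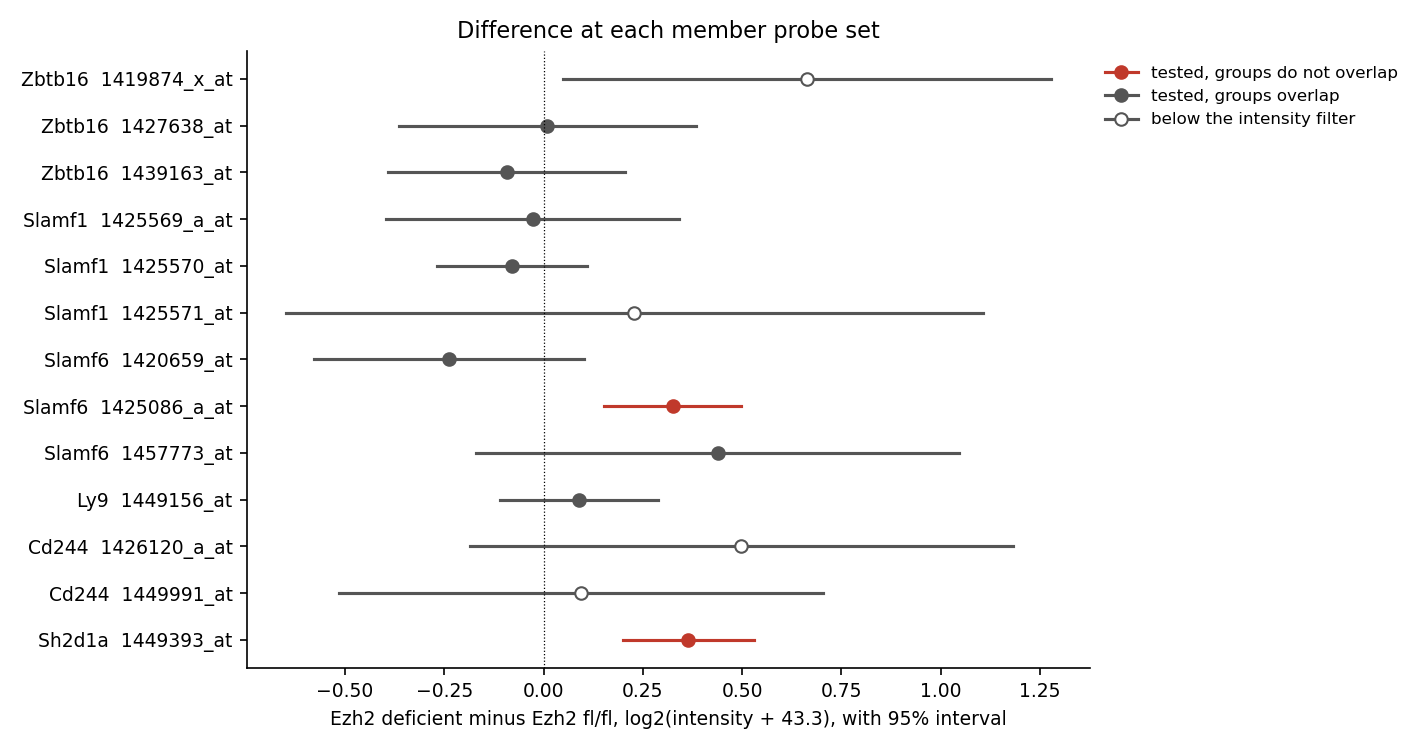
Log2 difference, Ezh2 deficient minus Ezh2 fl/fl, at each of the 13 probe sets with its 95% limma interval on the horizontal axis. Red marks the 2 tested probe sets whose groups do not overlap, Slamf6 1425086_a_at at 0.33 and Sh2d1a at 0.36, and open points are below the filter, where Zbtb16 1419874_x_at is at 0.66.

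**Figure D3:**
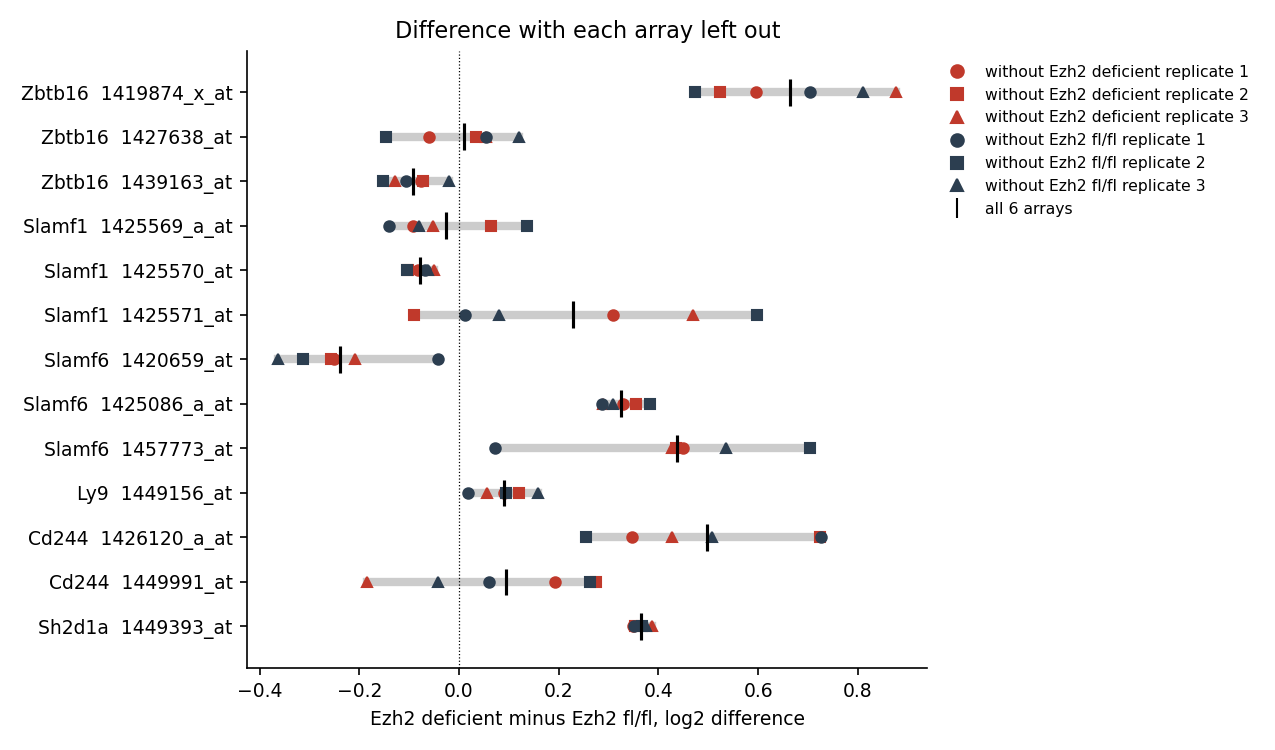
The same log2 difference with each of the 6 arrays left out, 1 point per omitted array, with a black tick for all 6 arrays and a grey bar for the range. Sh2d1a stays between 0.35 and 0.39, while Slamf6 1457773_at moves from 0.07 without Ezh2 fl/fl replicate 1 to 0.71 without Ezh2 fl/fl replicate 2.

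The genes whose levels followed each member most closely were taken by Pearson correlation over the 6 arrays, among 12270 other tested genes at their brightest probe set. With 6 points and that many genes such values are high by selection, and they are given as a description only. For Sh2d1a they were Slc9a7 (r = 0.989), Myb (r = 0.983) and Maip1 (r = 0.983), and for Slamf6 Cbr4 (r = 0.996), Nav2 and BC035044 (both r = 0.988). All 6 of these genes had groups that did not overlap, higher in the deficient cells, where 6.40% of all tested genes did. The 6 were picked for following probe sets that separate in that direction, so this count follows largely from the choice. For Ly9 they were Nmt1 (r = 0.994), Cd22 (r = 0.993) and Ets2 (r = 0.987). For Slamf1 they were Polm (r = 0.989), Neto1 (r = 0.978) and Pex11g (r = 0.977), and for Zbtb16 Tril (r = 0.987), Nsun3 (r = 0.986) and Znrf1 (r = 0.973). The brightest probe set of Cd244 lay below the filter and was not compared.

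The remaining SLAM receptors were read in the same way. Of 7 listed receptors and adaptors 5 were measured and 4 tested, with 0 called, 0 without overlap, and a median log2 difference of 0.04, or -0.045 without Ezh2 fl/fl replicate 1. Over all tested genes 6.40% did not overlap on the higher side and 7.80% on the lower side, so 0 of 4 says little. Cd48, the ligand of Cd244, read 4089, 4289 and 5438 on the Ezh2 deficient arrays and 4281, 5407 and 3966 on the Ezh2 fl/fl arrays, at 0.02, or -0.02 without Ezh2 fl/fl replicate 1. Cd84, a self-binding receptor that lies between Slamf1 and Slamf6, read 1872, 2222 and 2068 on the Ezh2 deficient arrays, against 1123, 2352 and 1896 on the Ezh2 fl/fl arrays. Its log2 difference was 0.25 (interval -0.24 to 0.75), and 0.20 on its other probe set, with Ezh2 fl/fl replicate 1 the lowest value. Without that array the Cd84 differences were -0.04 and 0.06. Slamf7, at 0.06 (-0.05 without that array), and Slamf9, at -0.13, were dim in both groups, and Slamf8 lay below the filter. Along the locus the difference at the brightest probe set was thus 0.50 for Cd244a, which lay below the filter, 0.09 for Ly9, 0.06 for Slamf7, 0.02 for Cd48, -0.08 for Slamf1, 0.25 for Cd84 and 0.33 for Slamf6. Leaving out Ezh2 fl/fl replicate 1 gave -0.04 for Cd84 and 0.29 for Slamf6.

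Signalling partners of the SLAM receptors and SAP numbered 12, of which 10 were tested. By limma 0 of the 10 were called and 1 had an unadjusted p under 0.05, where over all tested probe sets 7.22% did. The median was -0.002, beside -0.01 over the 12275 tested genes, and 5 differences were positive and 5 negative. Fyn, the kinase that SAP recruits, was at 0.02 with overlapping groups, or -0.02 without Ezh2 fl/fl replicate 1. Ptpn11, a phosphatase that docks on SLAM receptor tails, averaged 2163 ± 52.7 in the Ezh2 deficient cells and 1805 ± 235 in the Ezh2 fl/fl cells (log2 difference 0.26, limma adjusted p = 0.637) without overlap, but was at 0.02 and -0.24 on its other, dim probe sets. The first 2 of these Ptpn11 values were 0.15 and 0.12 when Ezh2 fl/fl replicate 1 was left out. Ptpn6, the related phosphatase, was at -0.10, or -0.16 without that array.

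Of 22 listed partners and regulators of PLZF, 19 were tested. Over all tested probe sets 7.22% had an unadjusted limma p under 0.05, in either direction. Of these 19 genes 0 were called, while 4 had such a p, all of them higher. In 5 the groups did not overlap, all higher in the deficient cells, which is 26.3% of 19 beside 6.40% of all tested genes on that side. The whole list was chosen with earlier results of these data known, in which Myb was already high. This share is therefore not independent of those results, with or without Myb. Without Ezh2 fl/fl replicate 1 the groups of 6 genes did not overlap on the higher side and of 2 on the lower side, where the shares of all tested genes were 10.9% and 13.9%. The median was 0.05, so most of the list lay near the median of all genes. Myb read 1709, 1966 and 1422 on the Ezh2 deficient arrays, against 663, 735 and 895 on the Ezh2 fl/fl arrays. Its groups stood far apart, at a log2 difference of 1.11 (SE 0.14, limma adjusted p = 0.0972), with 0.95 and 0.64 on its other probe sets. Id3, an inhibitor of E proteins that limits NKT and other innate-like cells in mice, read 1217, 1463 and 1046 on the Ezh2 deficient arrays, against 844, 856 and 1021 on the Ezh2 fl/fl arrays (log2 difference 0.43, limma adjusted p = 0.619). Its groups were parted by a narrow gap.
The other 3 of the 5 were named after their values were seen. Egr2, which in mouse NKT precursors acts directly on Zbtb16, read 765, 842 and 790 on the Ezh2 deficient arrays, against 648, 645 and 692 on the Ezh2 fl/fl arrays. Its log2 difference was 0.26 (limma adjusted p = 0.636), and 0.29 on its second probe set (0.13 without Ezh2 fl/fl replicate 1), where the groups overlapped. Bcl6, a relative of PLZF that directs follicular helper T cells, was at 0.39, and at 0.11 on its second probe set, with overlap (0.04 without that array). Tbx21, the T-bet gene of NKT and Th1 cells, was at 0.40, its groups parted by a narrow gap (340 lowest in deficient cells, 337 highest in Ezh2 fl/fl cells), and it was 0.21 without that array. All 3 missed the adjusted threshold.

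Genes of NKT and other innate-like T cells went both ways. Of 31 listed, 27 were measured and 24 tested, with 17 differences positive and 7 negative and a median of 0.14, beside -0.01 over all tested genes, of which 46.9% were positive. By limma 0 were called, and 6 had an unadjusted p under 0.05 on the higher side and 3 on the lower side. Over all tested probe sets 7.22% had such a p, in either direction. The groups did not overlap for 4 genes on the higher side (Gzma, Ifng, Il2rb and Xcl1) and 3 on the lower side (Ccr6, Itgae and Klrk1), which is 16.7% and 12.5% of 24, beside 6.40% and 7.80% of all tested genes. Without Ezh2 fl/fl replicate 1 these counts were 4 and 4, which is 16.7% of 24 in each direction, beside 10.9% and 13.9% of all tested genes. The list was chosen with earlier values of several of these genes known. Itgae, an integrin chain of epithelial homing, averaged 1568 ± 207 in the Ezh2 deficient cells and 2709 ± 674 in the Ezh2 fl/fl cells (log2 difference -0.75, limma adjusted p = 0.427). Xcl1, a chemokine made by natural killer and activated T cells, averaged 226 ± 34.7 in the Ezh2 deficient cells and 126 ± 26.4 in the Ezh2 fl/fl cells (log2 difference 0.68, limma adjusted p = 0.532). Of the NKT markers other than Zbtb16, Il2rb was at 0.29, Tbx21 at 0.40, Il4 at -0.18 and Cxcr6 at -0.52, so they shared no direction. Il2rb was at 0.15 and Tbx21 at 0.21 when Ezh2 fl/fl replicate 1 was left out. Cxcr6 read 1089, 1315 and 1327 on the Ezh2 deficient arrays, against 2648, 1216 and 1804 on the Ezh2 fl/fl arrays, with Ezh2 fl/fl replicate 1 the highest. The Cxcr6 difference was -0.25 without that array.
Of 8 genes of lipid presentation by CD1d, which selects NKT cells, 5 were tested and 0 called, with 0 at an unadjusted limma p under 0.05 and a median of -0.005. With 7.22% of all tested probe sets at such a p, 0 of 5 says little. Cd1d1, the presenting molecule, was at -0.005, Cd1d2 at 0.24 and Psap, which loads lipids, at -0.02. Without Ezh2 fl/fl replicate 1, Cd1d1 was at 0.06 and Cd1d2 at 0.13.

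**Figure D4:**
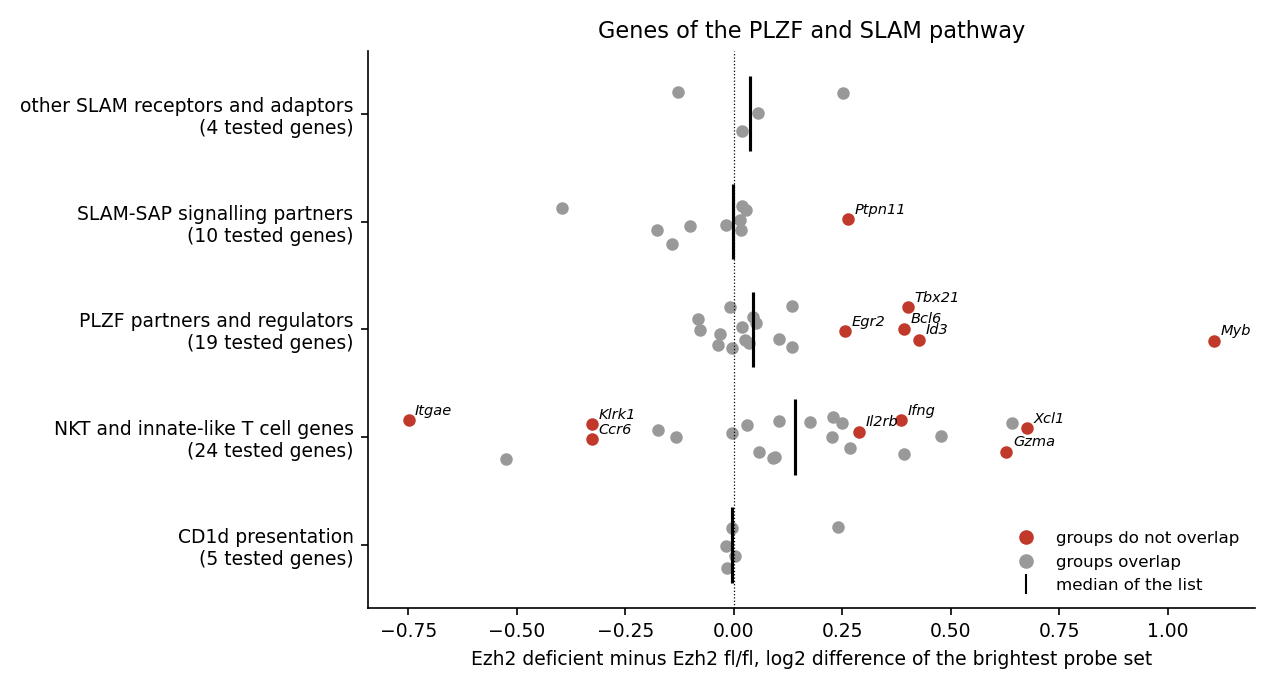
Log2 difference, Ezh2 deficient minus Ezh2 fl/fl, of each tested gene of 5 lists at its brightest probe set, with a black tick at the median of each list. Red marks genes whose groups do not overlap: 5 higher among PLZF partners and regulators, led by Myb at 1.11, 4 higher and 3 lower among NKT and innate-like genes, and 1 among signalling partners.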

How the data were processed

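The values deposited by the authors are intensities on a linear scale, 1 for each of 45101 probe sets on each of 6 arrays. The software behind them is not given in the sources used here. The trimmed mean without 2% at each end was 500.002 on every array. Array medians differed by 15.2%, above a tolerance of 10%, so arrays were quantile normalised and turned into log2(intensity + 43.3), the 20th percentile of positive values. After leaving out 64 control probe sets and those below the 40th percentile of mean log2 value, 27022 were tested with limma 3.58.1 (R 4.3.3; eBayes with trend), two-sided, with Benjamini-Hochberg adjustment over all of them and a threshold of 0.05. Members below the filter took their values from the same fit without the filter. No detection calls were used, and 6 arrays limit the precision. On data simulated for the Ezh2 deficient and Ezh2 fl/fl comparison with 27022 probe sets, with 50 probe sets per size of change, limma found 6% at 1.3-fold, 20% at 1.5-fold, 66% at 2-fold and 92% at 4-fold. The simulated noise was independent between probe sets, so these shares may overstate its power here, which was not tested.

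Gene names came from the platform annotation, with 34945 probe sets having 1 symbol, 932 several and 9160 none. Members and lists were chosen with earlier results of these data known. Named were all member probe sets, Ezh2, every measured SLAM receptor, the called genes or else the 2 of smallest p in each list, the 3 most similar genes per member and the marker genes. Listed genes with no singly named probe set were not analysed here. Alternatives were other scalings, pseudocounts, filters, eBayes settings (robust through statmod 1.5.0), weighted arrays, omission of each array, and 1 probe set a gene. Counts and differences of listed genes with an array left out were added after seeing the data.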

Additional observations from a re-analysis of the deposited data

How the results depend on the processing

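By limma 0 member probe sets were called under each of the 16 alternatives, as with the main settings. The differences of Sh2d1a (0.34 to 0.44) and Slamf6 1425086_a_at (0.29 to 0.42) kept their sign under all 15 that apply, with adjusted p from 0.319 to 0.779 and from 0.389 to 0.863. Over all probe sets the count of 1 called became 3 under the deposited scaling, 2 after its median centring, 3 by robust eBayes, 3 with array weights and 0 with 1 probe set a gene, and it ran from 1 to 6 with an array left out, with 6 when Ezh2 deficient replicate 2 was dropped and 3 when it was Ezh2 fl/fl replicate 1. The count of 2 members without overlap ran from 2 to 4 with an array left out, being 4 without Ezh2 fl/fl replicate 2 or 3, where fewer arrays overlap less often by construction. Signs turned at 4 member probe sets, all near 0 or dim. Zbtb16 1427638_at was at -0.043 under the deposited scaling and from -0.15 to 0.12 with an array left out. Slamf1 1425569_a_at was at 0.00051 after median centring and from -0.14 to 0.14 with an array left out. Slamf1 1425571_at ran from -0.091 to 0.60 and Cd244 1449991_at from -0.18 to 0.27 with an array left out. Of 195 list medians, 182 moved by less than 1 SD between arrays. Under the deposited scaling the T cell marker median was 0.011. After median centring the medians were 0.10 for SLAM and SAP signalling partners, 0.13 for PLZF partners and regulators, 0.090 for CD1d presentation and 0.078 for T cell markers, where the median of all tested probe sets was 0.05. With the filter at the 60th percentile, which leaves fewer genes, they were 0.13 for natural killer, 0.15 for NKT, -0.56 for gamma delta T and -0.42 for dendritic cell and macrophage markers. With an array left out they ran from -0.045 to 0.0020 for T cell, -0.16 to 0.11 for B cell and -0.55 to -0.22 for gamma delta T cell markers. The cause of these moves was not tested otherwise. No paired analysis was possible because array numbers in the titles run on from the first group into the other and are never shared.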
